A study of Homo sapiens with 10 samples.

Results

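The genes described here are 9 genes of antigen presentation by major histocompatibility complex (MHC) class I: B2M, HLA-B, HLA-C, HLA-E, HLA-F, TAP1, TAP2, TAPBP and NLRC5. They were taken by gene symbol from the count files, which hold 52402 symbols, and the counts of a symbol listed on several rows were summed. BEAS2B, a human bronchial epithelial cell line, was transfected by lipofection with scrambled miRNA (miRcontrol, genotype given as WT), a miR-3124-5p mimic (miR3124_mimic, overexpression), a miR-200b-3p mimic (miR200b_mimic, overexpression), a miR-92b inhibitor (miR92b_inhibitor, knockdown) or those 3 agents together (mixture). Each single agent and the control were given at 50 nM, the dose of each agent within the mixture was not stated, and RNA was taken at 48 h. Each of the 5 groups had 2 libraries of poly(A) RNA, 10 libraries in all. Nothing says that the 2 libraries of a group came from separate transfections, so p-values measure only the spread between these libraries, which may be technical. All groups are the same cell line with the same transfection reagent, and no untransfected cells were analysed.

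MHC class I molecules carry short peptides from inside the cell to its surface, where CD8+ T cells inspect them. A class I molecule is a heavy chain, encoded by an HLA gene, paired with the light chain beta-2-microglobulin (B2M). Peptides are cut by the proteasome, pumped into the endoplasmic reticulum by the transporter TAP1/TAP2, and loaded with the help of tapasin (TAPBP), which bridges the transporter and the heavy chain. NLRC5 is a transcriptional co-activator of class I genes, and interferons raise the whole pathway in most cell types, airway epithelium included. HLA-B and HLA-C are classical heavy chains that present peptides to T cells. HLA-E and HLA-F are non-classical heavy chains read mainly by receptors of natural killer cells.

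The mature miRNA sequences name the agents, and their seeds (bases 2 to 8, in capitals) are the part that pairs with a target. They are RefSeq sequences on build GRCh38.p14. The labels do not give the arm of miR-92b, so both arms are shown.
hsa-miR-3124-5p: uUCGCGGGcgaaggcaaaguc
hsa-miR-200b-3p: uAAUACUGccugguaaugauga
hsa-miR-92b-5p: aGGGACGGgacgcggugcagug
hsa-miR-92b-3p: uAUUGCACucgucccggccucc
The 4 seeds differ from one another. The DNA word that pairs with the miR-3124-5p seed, CCCGCGA, was in none of the 9 members, in coding sequence or in either untranslated region of the longest coding transcript. It was in the 3′ untranslated region of 0.621% of coding genes, in the coding sequence of 3.99% and in the 5′ untranslated region of 2.87%. CAGTATT, which pairs with the miR-200b-3p seed, was in 16.1% of 3′ untranslated regions and in 8.91% of coding sequences. It stood in the 3′ untranslated region of TAP2 at bases 614 to 620 and 3405 to 3411 of 3491. It also stood in the HLA-F coding sequence at bases 235 to 241 of 1329. CCGTCCC, the match of the miR-92b-5p seed, stood in the HLA-B coding sequence at bases 914 to 920 of 1089. It was in 5.70% of coding sequences and in 3.77% of 3′ untranslated regions. GTGCAAT, the match of the miR-92b-3p seed, was in no member. Over all coding genes it was in 10.9% of 3′ untranslated regions, 5.65% of coding sequences and 0.769% of 5′ untranslated regions. These are the sites of the members with counts, with the match in capitals.
HLA-F, miR-200b-3p: agcaagaggggccgCAGTATTgggagtgg
HLA-B, miR-92b-5p: gtcttcccagtccaCCGTCCCcatcgtgg
A match of letters is a description and not a measured site.

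Cells given the miR-3124-5p mimic had more B2M, HLA-B, HLA-C and NLRC5 RNA and less TAPBP RNA than control cells. HLA-B changed most of the heavy chain members, at 1.82-fold of control (95% interval 1.67 to 1.97), B2M stood at 1.57-fold, NLRC5 at 1.45-fold and HLA-C at 1.43-fold, while TAPBP was 5.81-fold lower. These 5 were all the members that passed an adjusted p of 0.05 (edgeR quasi-likelihood test, Benjamini-Hochberg over 14884 genes) among the 7 tested (TAP1 and TAP2 were at 0 and not tested), and 51.0% of all genes tested passed in that comparison. Of the members, 4 of 7 were higher, where 25.7% of all genes were higher, and 1 of 7 was lower, where 25.3% were lower. In the mixture 4 of 7 members passed, all higher (B2M, HLA-B, HLA-C and NLRC5), against 42.7% of all genes in either direction and 21.5% higher. The miR-200b-3p mimic moved HLA-C and HLA-F, both higher, 2 of 7 members against 40.6% of all genes and 21.4% higher. The miR-92b inhibitor moved B2M and HLA-B, both higher, 2 of 7 against 35.7% and 17.5% higher. Over both directions the share of members for these 2 agents was below the background of their comparison. All 4 comparisons use the same 2 control libraries. In bulk RNA a change in the number of cells and a change in RNA per cell cannot be told apart.

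**Figure D1:**
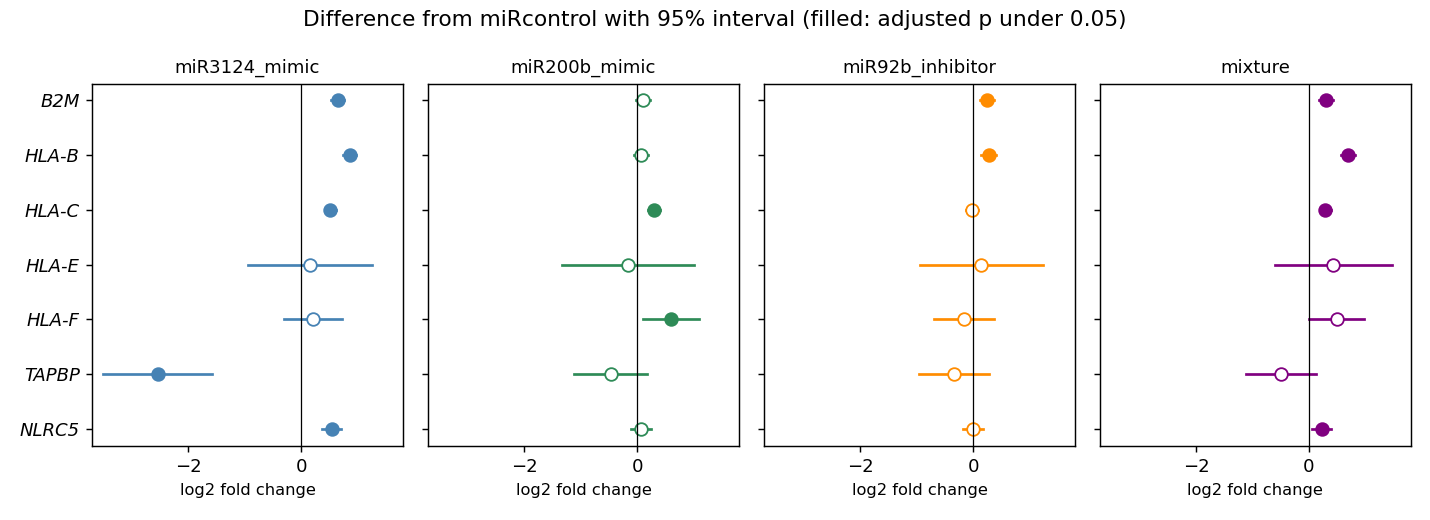
Log2 fold change of each member tested from miRcontrol (x axis) with its 95% interval (lines), by transfected group. Filled points have an adjusted p under 0.05: B2M, HLA-B, HLA-C, NLRC5 and TAPBP with miR3124_mimic, HLA-C and HLA-F with miR200b_mimic, B2M and HLA-B with miR92b_inhibitor, and B2M, HLA-B, HLA-C and NLRC5 in the mixture.

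The median log2 fold change of the 7 members tested was 0.52 with the miR-3124-5p mimic, 0.07 with the miR-200b-3p mimic, -0.00045 with the miR-92b inhibitor and 0.30 in the mixture. The same median over all 14884 genes was 0.0039, -0.0055, -0.0061 and 0.0030. At the criterion of at least a 2-fold change with an unadjusted p under 0.05, TAPBP with the miR-3124-5p mimic was the 1 member called in these 4 comparisons, and 8.81% of all genes were called there. The criterion called 5.70% of genes with the miR-200b-3p mimic, 2.63% with the miR-92b inhibitor and 5.42% in the mixture, and 0 of 7 members in each. Over all 5 groups at once, 6 of 7 members differed (quasi-likelihood F test), against 77.0% of all genes, the exception being HLA-E.

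Most members lie in the MHC on chromosome 6, and the count files list their symbols on several rows. B2M is elsewhere, at chr15:44711517-44718145 in GRCh38.p14, and NLRC5 at chr16:56989557-57083520. The others run from HLA-F at chr6:29723434-29738532 through HLA-E (chr6:30489509-30494194), HLA-C (chr6:31268749-31272092), HLA-B (chr6:31353875-31357179), TAP2 (chr6:32821831-32838739) and TAP1 (chr6:32845209-32853704) to TAPBP at chr6:33299694-33314078. HLA-B had 6 rows, all with counts, and HLA-C had 7 rows, of which 5 had counts. HLA-E and HLA-F had 7 rows each and counts on 1 of them, and TAPBP had 5 rows and counts on 2. B2M, though outside the MHC, had 2 rows and counts on 1, and NLRC5 had a single row. TAP1 and TAP2 had 8 rows each and no count on any.

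Symbols on several rows were often at 0. Of coding symbols listed once, 2240 of 17426 (12.9%) had 0 counts in all 10 libraries, and of those listed more than once 452 of 955 (47.3%) did. Of coding symbols listed 5 or more times 103 of 193 (53.4%) were at 0, and of those between HLA-F and TAPBP on chromosome 6 it was 62 of 132 (47.0%). RPS18, a ribosomal protein gene with 6 rows in that stretch, had 1 count over the 10 libraries, while 78 ribosomal protein genes listed once had a median of 63005. RPS18 was chosen after its values were seen, and other genes of the stretch listed on several rows differed widely. Over the 10 libraries TUBB had 10132 counts on 8 rows, BAG6 2145 on 7 and BRD2 953 on 7. FLOT1 had 139 on 8 rows, DDX39B 75 on 8 and CSNK2B 1 on 7. ABCF1 had 0 on 7 rows, and PSMB8 and PSMB9 had 0 on 8 each. These genes too were chosen after the counts were seen. How reads that fit several rows were counted is not given in the sources used here, and its part in the levels was not tested. HLA-B, HLA-C, HLA-E and HLA-F are also near copies of one another, so that reads can fall to a relative, and their counts are uncertain to that extent. The level of a member on several rows is therefore given as a count in these files, and a 0 is not read as a gene without RNA.

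**Figure D2:**
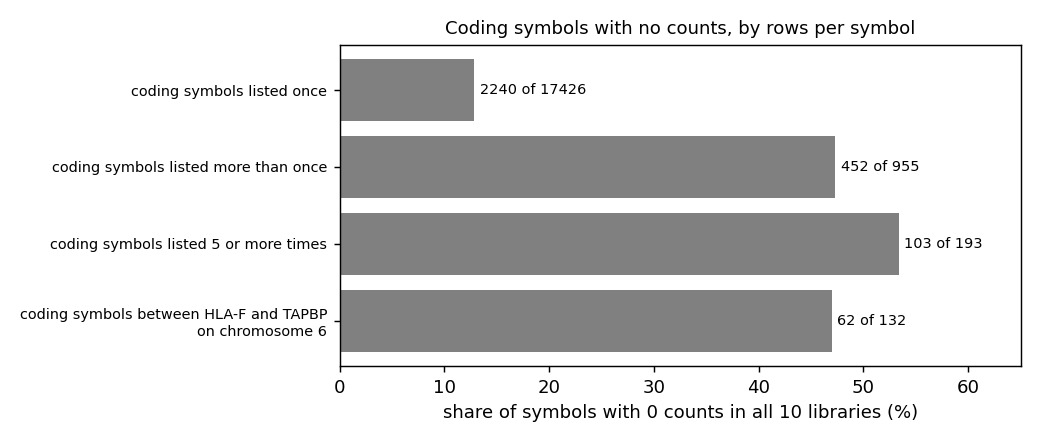
Share of coding symbols with 0 counts in all 10 libraries (x axis, percent), by the number of rows a symbol has in the count files or by position on chromosome 6. The bar for symbols listed once (2240 of 17426, 12.9%) is the shortest, and the other 3 bars lie between 47.0% and 53.4%.

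B2M, the light chain shared by all class I molecules, had 870 and 898 counts in miRcontrol and 1143 and 1482 with miR3124_mimic. In CPM, the count scaled to a common normalized library size, these were 49.8 and 53.6 in miRcontrol and 78.1 and 83.8 with miR3124_mimic. It stood at 55.5 and 55.9 CPM with miR200b_mimic, 59.0 and 63.6 with miR92b_inhibitor and 63.0 and 64.1 in the mixture. Both libraries of every transfected group were above both control libraries, with the miR3124_mimic pair clear of all others. The group means were 81.0 ± 4.10 CPM (SD, n = 2) with miR3124_mimic and 51.7 ± 2.69 in miRcontrol, a log2 fold change of 0.65 (SE 0.0582, adjusted p = 2.07e-13 by the edgeR quasi-likelihood test). The mixture was higher than control by 0.30 on the log2 scale (adjusted p = 3.95e-05) and miR92b_inhibitor by 0.25 (adjusted p = 0.000898), while miR200b_mimic differed by 0.11 (-0.02 to 0.23, adjusted p = 0.168). In the order of the levels the mixture and miR92b_inhibitor did not differ beyond their spread (adjusted p = 0.494), nor did miR92b_inhibitor and miR200b_mimic (0.0509).

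HLA-B had the largest called rise of the heavy chain members in the miR-3124-5p mimic and in the mixture. Its counts were 757 and 690 in miRcontrol, 1134 and 1345 with miR3124_mimic, 572 and 795 with miR200b_mimic, 897 and 913 with miR92b_inhibitor and 1258 and 1242 in the mixture. The levels were 43.3 and 41.2 CPM in miRcontrol, 77.4 and 76.1 with miR3124_mimic, 42.8 and 45.7 with miR200b_mimic, 52.3 and 49.98 with miR92b_inhibitor and 69.6 and 66.8 in the mixture. The miR200b_mimic libraries overlapped the control libraries, and the other groups lay above control without overlap, in the order miR92b_inhibitor, mixture, miR3124_mimic. The mean of miR3124_mimic was 76.8 ± 0.950 CPM (SD, n = 2) against 42.3 ± 1.52, a log2 fold change of 0.86 (SE 0.0597, adjusted p = 4.26e-17 by the edgeR quasi-likelihood test). The mixture rose by 0.69 (adjusted p = 1.19e-13) and miR92b_inhibitor by 0.27 (adjusted p = 0.000392), and miR200b_mimic differed by 0.07 (-0.06 to 0.20, adjusted p = 0.419). Each step in that order was itself past the threshold except miR200b_mimic against miRcontrol: the mixture was below miR3124_mimic by 0.17 (adjusted p = 0.00848), miR92b_inhibitor below the mixture by 0.42 (adjusted p = 5.75e-08), and miR200b_mimic below miR92b_inhibitor by 0.20 (adjusted p = 0.00554).

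The 6 HLA-B rows gave the same direction in the miR-3124-5p mimic. They are entries of 1 symbol in the same libraries and may share reads, so they are not independent measurements. Row by row, the group mean was 1.70 to 1.94 times the control mean with miR3124_mimic and 1.50 to 1.91 times in the mixture, with both libraries above both controls on 6 of 6 rows in each. In miR92b_inhibitor it was 1.12 to 1.40 times, and 5 of 6 rows lay above control. In miR200b_mimic it ran from 0.879 to 1.20 times, and 3 of 6 rows lay above. The row at 0.879 times had both libraries below both controls, and the remaining rows overlapped control. The row with the most counts held 49.5% of all HLA-B counts.

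HLA-C had 1392 and 1313 counts in miRcontrol, 1646 and 2016 with miR3124_mimic, 1248 and 1758 with miR200b_mimic, 1324 and 1437 with miR92b_inhibitor and 1747 and 1793 in the mixture. It stood at 79.7 and 78.4 CPM in miRcontrol, 112 and 114 with miR3124_mimic, 93.3 and 101 with miR200b_mimic, 77.3 and 78.7 with miR92b_inhibitor and 96.6 and 96.5 in the mixture. Control and miR92b_inhibitor libraries overlapped, and the other 3 groups lay above both. It was the 1 member that rose in every group given a mimic without overlap and with a call in each: by 0.52 on the log2 scale with miR3124_mimic (SE 0.0493, adjusted p = 1.33e-12 by the edgeR quasi-likelihood test), by 0.30 with miR200b_mimic (adjusted p = 2.44e-06) and by 0.29 in the mixture (adjusted p = 3.86e-06). In miR92b_inhibitor HLA-C differed from control by -0.02 (-0.12 to 0.08, adjusted p = 0.814). The mixture and miR200b_mimic differed by -0.01 (-0.11 to 0.08, adjusted p = 0.853), and the mixture was below miR3124_mimic by 0.23 (adjusted p = 6.72e-05). HLA-C and HLA-B thus differed in which agents moved them: HLA-C was called with the miR-200b-3p mimic and HLA-B with the miR-92b inhibitor, and between those 2 groups HLA-C was lower with miR92b_inhibitor by 0.32 (adjusted p = 4.79e-07) where HLA-B was higher by 0.20. The 2 HLA-C rows that held 38.8% and 60.8% of its counts were at 1.27 and 1.54 times control with miR3124_mimic. With miR92b_inhibitor they parted: the first was at 0.917 times, both libraries below both controls, and the other at 1.03 times, both above.

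**Figure D3:**
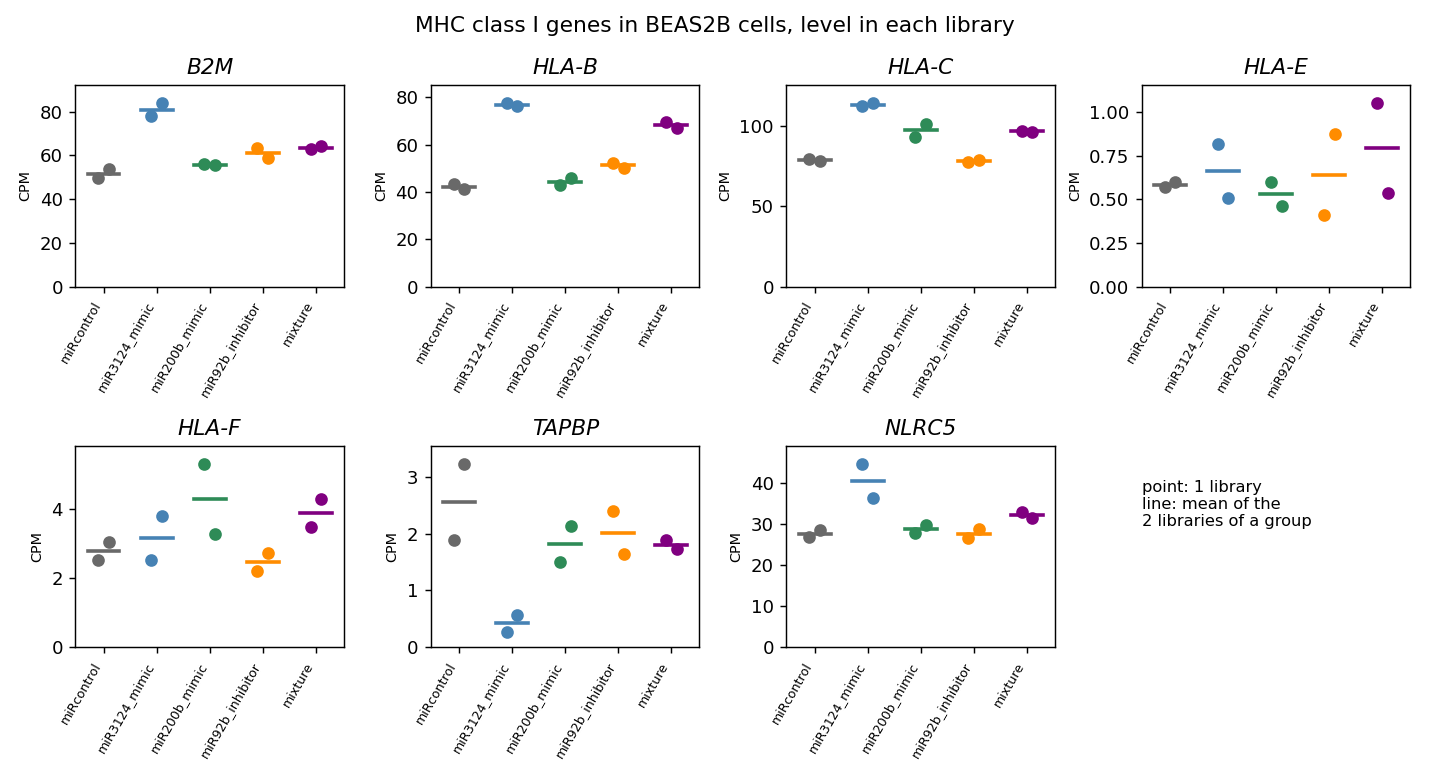
Level of the 7 members with counts in each of the 10 libraries (y axis, CPM, starting at 0), by group. Points are libraries and lines are means of 2: for HLA-B the miR3124_mimic libraries (77.4 and 76.1) and the mixture libraries (69.6 and 66.8) lie above all others, and for TAPBP the miR3124_mimic libraries (0.273 and 0.566) lie below all others.

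The promoters of B2M, HLA-B and HLA-C carry motifs that class I promoters are known for, though not all the motifs searched were found in each. They are shown since the 3 genes rose together with the miR-3124-5p mimic. Each is the stretch from 200 to 41 bases before the RefSeq start site in GRCh38.p14, 160 bases, read in the direction of the gene. Capitals mark 4 motifs searched on both strands: TGACG, the core of a cAMP response element; ATTGG, the inverted CCAAT box, with its reverse CCAAT; an NF-kB word, which is the first run of capitals in HLA-B; and a word like the interferon-stimulated response element (ISRE), GAAA and GAAA with 2 bases of any kind between them, whose matches can overlap.
B2M, chr15:44711317-44711476, + strand: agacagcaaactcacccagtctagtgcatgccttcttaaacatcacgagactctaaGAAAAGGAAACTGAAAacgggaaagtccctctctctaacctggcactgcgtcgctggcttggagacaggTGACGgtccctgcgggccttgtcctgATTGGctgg
HLA-B, chr6:31357220-31357379, - strand: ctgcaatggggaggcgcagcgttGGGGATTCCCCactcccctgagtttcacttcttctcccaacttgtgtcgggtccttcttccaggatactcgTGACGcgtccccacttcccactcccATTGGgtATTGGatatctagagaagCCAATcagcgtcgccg
HLA-C, chr6:31272133-31272292, - strand: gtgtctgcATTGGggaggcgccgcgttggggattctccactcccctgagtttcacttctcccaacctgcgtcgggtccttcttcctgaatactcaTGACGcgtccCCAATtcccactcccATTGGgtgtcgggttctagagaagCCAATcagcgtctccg
TGACG and the ATTGG word stand in all 3, TGACG at -75 to -71 in B2M, -106 to -102 in HLA-B and -105 to -101 in HLA-C. The 2 overlapping ISRE-like matches are in B2M, at -144 to -135 and -138 to -129, and the NF-kB word is in HLA-B at -177 to -167. Only these exact words were searched, so a promoter without a marked word is not read as lacking that kind of element. The words were searched in the 250 bases before the start of 35116 RefSeq promoters. Of these, 32.0% held ATTGG, 21.2% TGACG, 3.02% the ISRE-like word and 0.0313% (11 promoters) the NF-kB word. A promoter was found for 7 of 9 members, not for HLA-E and NLRC5. The TAPBP promoter held the ISRE-like word at -20 to -11 and at -14 to -5, and the word also stood in those of HLA-F, TAP1 and TAP2. ATTGG stood in the promoters of HLA-F and TAP1 as well, and TGACG in that of TAP2. These words were thus not particular to the 3 genes shown, and HLA-F was not called with the miR-3124-5p mimic.

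HLA-E, the heavy chain that displays leader peptides of other class I chains, had 7 to 19 counts per library. The group means were 0.585 CPM in miRcontrol, 0.664 with miR3124_mimic, 0.529 with miR200b_mimic, 0.642 with miR92b_inhibitor and 0.794 in the mixture, and the libraries of all groups overlapped those of the control. With the miR-3124-5p mimic the log2 difference was 0.16 with an interval of -0.95 to 1.26 (adjusted p = 0.832 by the edgeR quasi-likelihood test), so changes of up to 2-fold either way were hardly detectable at this depth. HLA-F had 44 and 51 counts in miRcontrol, 37 and 67 with miR3124_mimic, 71 and 57 with miR200b_mimic, 38 and 50 with miR92b_inhibitor and 63 and 80 in the mixture. Its miR200b_mimic and mixture libraries were above both controls. The difference with the miR-200b-3p mimic, 0.60 on the log2 scale (0.10 to 1.09), passed narrowly (adjusted p = 0.0477), and that of the mixture did not (0.49, adjusted p = 0.101). The HLA-F call rests on single libraries: without miR200b_mimic replicate 1 the difference was 0.24 (adjusted p = 0.580), without miRcontrol replicate 1 it was 0.47 (0.249), and without miRcontrol replicate 2 it was 0.74 (0.0619).

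TAP1 and TAP2, the transporter of peptides into the endoplasmic reticulum, had 0 counts in every library, where 3 counts would be 0.161 to 0.224 CPM. TAPBP, the tapasin that holds the empty class I molecule at the transporter, had 33 and 54 counts in miRcontrol and 4 and 10 with miR3124_mimic, with exact Poisson intervals of 22.7 to 46.3 and 40.6 to 70.5 in miRcontrol and of 1.09 to 10.2 and 4.80 to 18.4 with miR3124_mimic. These intervals cover counting error only. It had 20 and 37 with miR200b_mimic, 41 and 30 with miR92b_inhibitor and 34 and 32 in the mixture. The miR3124_mimic libraries were below all 8 others, and those 8 ranged from 1.50 to 3.22 CPM.

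The TAPBP means were 0.419 ± 0.207 CPM (SD, n = 2) with miR3124_mimic and 2.56 ± 0.943 in miRcontrol, a log2 fold change of -2.54 (SE 0.480, interval -3.51 to -1.57, adjusted p = 1.24e-06 by the edgeR quasi-likelihood test). In the mixture, which contains the same mimic at a dose that was not stated, TAPBP differed from control by -0.50 (-1.12 to 0.13, adjusted p = 0.199). The mixture was above miR3124_mimic by 2.04 (1.06 to 3.02, adjusted p = 0.000123), and miR92b_inhibitor and miR200b_mimic were above it by 2.20 and 2.07. The 2 TAPBP rows with counts were at 0.0845 and 0.262 times control with the miR-3124-5p mimic, from 1 and 3 counts on the first and 3 and 7 on the other. With only the row that had the most counts the log2 fold change was -1.86 (adjusted p = 0.00358), and leaving out 1 library at a time gave -3.19 (without miR3124_mimic replicate 2) to -2.11 (without miRcontrol replicate 2). TAPBPL, a relative of tapasin that also edits the peptides of class I, was higher by 0.63 with this mimic (adjusted p = 0.00974). Its higher level was not particular to this mimic. The TAPBPL mean was 3.19 CPM in miRcontrol, 4.92 with miR3124_mimic, 4.99 with miR200b_mimic and 4.26 in the mixture. The miR92b_inhibitor libraries stood at 4.73 and 3.67 CPM, also above both controls. Against control, TAPBP was called only with miR3124_mimic.

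**Figure D4:**
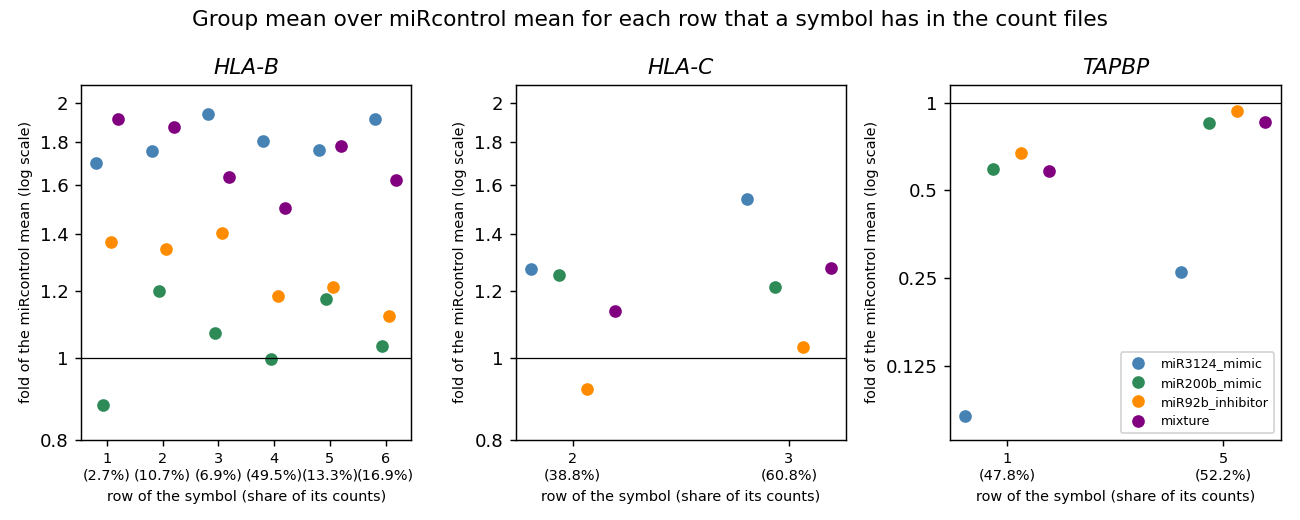
Group mean over miRcontrol mean (y axis, log scale) for each row of HLA-B, HLA-C and TAPBP that had at least 50 counts over the 10 libraries. The x axis gives the row's order in the files and its share of the counts of the symbol. All 6 HLA-B rows lie between 1.70 and 1.94 with miR3124_mimic, and both TAPBP rows lie at or below 0.262.

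NLRC5, the co-activator that binds class I promoters through their enhanceosome, had 469 and 479 counts in miRcontrol, 654 and 643 with miR3124_mimic, 373 and 519 with miR200b_mimic, 456 and 525 with miR92b_inhibitor and 598 and 587 in the mixture. The levels were 26.8 and 28.6 CPM in miRcontrol, 44.7 and 36.4 with miR3124_mimic and 33.1 and 31.6 in the mixture. It was the member with a single row in the files. The miR3124_mimic libraries stood above the mixture libraries, which stood above both controls, and the other groups overlapped control. The rise was 0.54 on the log2 scale with the miR-3124-5p mimic (SE 0.0822, adjusted p = 2.47e-07 by the edgeR quasi-likelihood test) and 0.22 in the mixture (adjusted p = 0.0268). The call in the mixture was lost without miRcontrol replicate 1 (0.18, adjusted p = 0.198) and without mixture replicate 1 (0.19, adjusted p = 0.150). NLRC5 differed from control by 0.06 (-0.11 to 0.24) with the miR-200b-3p mimic and by -0.00045 (-0.17 to 0.17) with the miR-92b inhibitor, in which B2M and HLA-B were called higher.

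Transfected groups were also compared with each other. B2M, HLA-B, HLA-C and NLRC5 were lower and TAPBP higher with miR200b_mimic, with miR92b_inhibitor and in the mixture than with miR3124_mimic, 5 of 7 members each, where 57.8%, 58.8% and 49.1% of all genes were called, and HLA-E and HLA-F did not pass in any of the 3. Against the mimic alone the mixture was lower by 0.35 for B2M (adjusted p = 7.44e-07, edgeR quasi-likelihood test) and by 0.32 for NLRC5 (adjusted p = 0.000751). Between the other pairs the counts were 3 of 7 for miR92b_inhibitor against miR200b_mimic (50.5% of all genes), 2 of 7 for the mixture against miR200b_mimic (38.6%) and 4 of 7 for the mixture against miR92b_inhibitor (39.6%). Over the 6 pairs 24 of 42 differences of members passed.

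Over the 10 libraries HLA-B and B2M correlated at r = 0.90, NLRC5 correlated with HLA-B at 0.83, with HLA-C at 0.83 and with B2M at 0.81, and TAPBP with NLRC5 at -0.84. HLA-F correlated with B2M at 0.02 and with NLRC5 at -0.00082. These are descriptions over libraries that fall into 5 groups and share the change between them. The mean profile of the 7 members, each on a log2 scale with 1 CPM added, was most like that of IQCH-AS1 (r = 0.98), ATP8A2 (0.97), DNAJC16 (0.95), ZFP69B (0.95) and MT1E (0.95) among 6524 candidate genes over 10 libraries. IQCH-AS1 is an antisense RNA whose reads cannot be told apart from those of its partner without a stated strand setting, and MT1E has close copies among the metallothioneins. DNAJC16, for example, stood at 32.0 CPM in miRcontrol, 46.1 with miR3124_mimic, 33.8 with miR200b_mimic, 31.9 with miR92b_inhibitor and 45.4 in the mixture. The mean profile includes TAPBP, which was lower with miR3124_mimic. Its values were 0.0696 and 0.110 with miR3124_mimic and 0.155 and 0.105 in the mixture. B2M, HLA-B, HLA-C and NLRC5 were instead highest with miR3124_mimic, so the profile does not follow their order of groups.

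A wider list of 68 genes around the pathway, of which 61 were tested, gave 32 higher and 10 lower with the miR-3124-5p mimic, 12 and 14 with the miR-200b-3p mimic, 20 and 11 with the miR-92b inhibitor and 27 and 11 in the mixture. Of all genes tested 25.7%, 21.4%, 17.5% and 21.5% were higher in those comparisons, and 25.3%, 19.1%, 18.2% and 21.1% were lower. The median log2 fold changes of the list were 0.25, 0.04, 0.07 and 0.21. Here and for the lists that follow, a gene said to rise or fall had an adjusted p under 0.05, and amounts are on the log2 scale. Among the other heavy chains and class I-like genes, 4 of 9 tested were higher and 2 lower with the miR-3124-5p mimic, 1 and 3 with the miR-200b-3p mimic, 0 and 2 with the miR-92b inhibitor and 3 and 2 in the mixture. FCGRT, the heavy chain of the neonatal Fc receptor, which also pairs with B2M, had 2.75 and 3.46 CPM in miRcontrol and 11.2 and 12.1 with miR3124_mimic, a log2 fold change of 1.91 (adjusted p = 4.91e-13, edgeR quasi-likelihood test), and in the mixture it differed by 0.47 (adjusted p = 0.0535). HFE, a class I-like regulator of iron uptake, was lower in each transfected group, by 0.93 with the miR-3124-5p mimic, 0.92 with the miR-200b-3p mimic, 0.81 with the miR-92b inhibitor and 1.33 in the mixture, against the same 2 control libraries. MICA, a stress-induced ligand of natural killer cells, was higher by 0.62 with the miR-3124-5p mimic (adjusted p = 1.99e-06), 0.31 with the miR-200b-3p mimic (adjusted p = 0.0221) and 0.47 in the mixture (adjusted p = 0.000202).

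**Figure D5:**
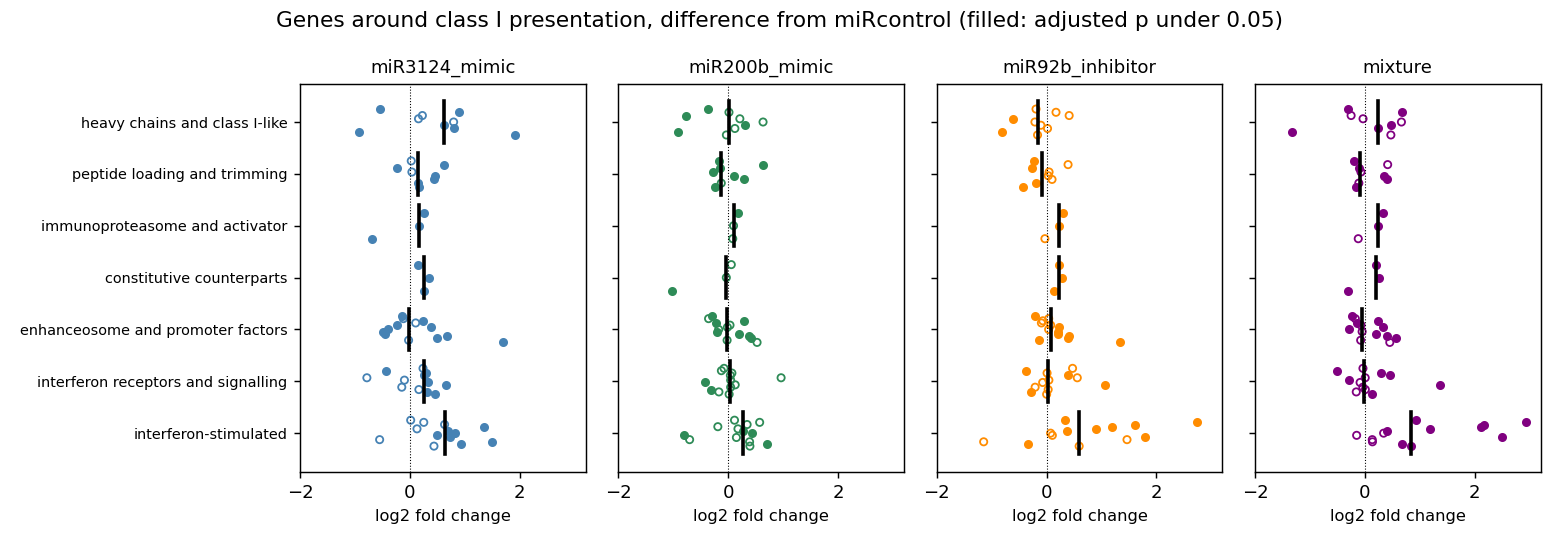
Log2 fold change from miRcontrol (x axis) of each gene tested in 7 lists around class I presentation, by transfected group. Points are genes, filled where the adjusted p is under 0.05, and black bars are list medians: the median of the interferon-stimulated list is 0.63 with miR3124_mimic, 0.27 with miR200b_mimic, 0.59 with miR92b_inhibitor and 0.83 in the mixture.

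Of 8 genes of peptide loading and trimming, 5 were higher and 1 lower with the miR-3124-5p mimic, and 3 and 4 with the miR-200b-3p mimic. With the miR-92b inhibitor the numbers were 0 and 4, and in the mixture 2 and 3. In the same order, 25.7%, 21.4%, 17.5% and 21.5% of all genes were higher and 25.3%, 19.1%, 18.2% and 21.1% lower. ERAP1 and ERAP2, the aminopeptidases that trim peptides in the endoplasmic reticulum, rose by 0.44 and 0.45 with the miR-3124-5p mimic and by 0.40 and 0.34 in the mixture. CALR, the chaperone of the loading complex, rose by 0.17 with the miR-3124-5p mimic and fell by 0.24, 0.44 and 0.16 in the other 3 groups. Of the immunoproteasome and its activator, 3 of 5 genes were tested, of which 2 were higher and 1 lower with the miR-3124-5p mimic, 1 and 0 with the miR-200b-3p mimic, and 2 and 0 with each of the other agents. PSME1 and PSME2, the activator subunits, rose by 0.24 and 0.31 with the miR-92b inhibitor and by 0.23 and 0.34 in the mixture, and PSMB10, an inducible catalytic subunit, fell by 0.69 with the miR-3124-5p mimic. The other members of that list were at 0 in all libraries and lie in the stretch of chromosome 6 described above. The 3 constitutive subunits that the inducible ones replace were all higher with the miR-3124-5p mimic and with the miR-92b inhibitor. PSMB5, a constitutive catalytic subunit, lost that call with the inhibitor without either inhibitor library (adjusted p = 0.0654 and 0.0732) or miRcontrol replicate 1 (0.421), and it fell by 1.03 with the miR-200b-3p mimic, from 106 and 118 CPM to 56.9 and 52.8.

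Of 13 factors of the class I promoter, 5 were higher and 5 lower with the miR-3124-5p mimic, and 4 and 3 with the miR-200b-3p mimic. With the miR-92b inhibitor the numbers were 6 and 2, and in the mixture 5 and 3. In the same order, 25.7%, 21.4%, 17.5% and 21.5% of all genes were higher and 25.3%, 19.1%, 18.2% and 21.1% lower. IRF1, an interferon-induced activator of class I genes, rose in each transfected group, by 0.49 with the miR-3124-5p mimic, 0.41 with the miR-200b-3p mimic, 0.39 with the miR-92b inhibitor and 0.58 in the mixture. CIITA, the relative of NLRC5 that drives class II genes, rose from 0.572 and 0.537 CPM to 1.57 and 2.04 with the miR-3124-5p mimic (1.70, adjusted p = 0.00108, edgeR quasi-likelihood test) and was higher with the miR-92b inhibitor (1.33, adjusted p = 0.0176). The second of these calls was lost without miR92b_inhibitor replicate 2 (adjusted p = 0.177), without miRcontrol replicate 1 (0.0729) and without miRcontrol replicate 2 (0.0899). The 7 class II genes listed summed to at most 1.97 CPM in any library, and 4 of them were at 0.

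Levels of genes of the interferon response are given beside the members. Of 13 interferon-stimulated genes tested, 7 were higher and 0 lower with the miR-3124-5p mimic, 3 and 1 with the miR-200b-3p mimic, 7 and 1 with the miR-92b inhibitor and 9 and 0 in the mixture, where 25.7%, 21.4%, 17.5% and 21.5% of all genes were higher and 25.3%, 19.1%, 18.2% and 21.1% lower. Of 12 interferon receptors and signalling genes the numbers were 6 and 1, 0 and 2, 2 and 2, and 4 and 2. The summed level of the interferon-stimulated genes was 146 to 151 CPM in miRcontrol, 198 to 214 with miR3124_mimic, 174 to 178 with miR200b_mimic, 197 to 226 with miR92b_inhibitor and 248 to 360 in the mixture. The sum was highest in the mixture, whereas B2M, HLA-B, HLA-C and NLRC5 were highest with miR3124_mimic. Single genes of the list were split. The means of GBP1, GBP2, IFIT1, IFIT2 and IFIT3 were highest with miR3124_mimic, as for GBP1 at 50.8 CPM against 42.6 in the mixture. Those of ISG15, MX1, OAS1, OAS2, OAS3, IFI6 and BST2 were highest in the mixture, and that of IFI44 with miR92b_inhibitor. IFI6, an interferon-induced mitochondrial protein, rose by 1.79 with the miR-92b inhibitor and by 2.49 in the mixture, where its libraries stood at 37.5 and 68.6 CPM. IRF9, the DNA-binding subunit of the interferon-activated factor ISGF3, rose by 0.66 with the miR-3124-5p mimic, 1.07 with the miR-92b inhibitor and 1.36 in the mixture. OAS1, OAS2 and MX1, antiviral effectors, rose by 2.17, 2.93 and 2.11 in the mixture, whose libraries differed: OAS1 had 4.48 and 8.66 CPM, OAS2 2.88 and 7.43, and MX1 3.54 and 8.34. Without mixture replicate 2, the library with the higher values, OAS2 differed from control by 2.08 and MX1 by 1.36, and without miRcontrol replicate 2 OAS2 differed by 3.66. The libraries of the miR-92b inhibitor also differed, and without its replicate 2 neither MX1 (adjusted p = 0.926) nor OAS1 (0.0510) passed there. The part of interferon signalling in the members' change was not tested.

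The labelled cell type was only partly matched by its markers. Of 7 bronchial epithelial genes, the keratins KRT7, KRT8 and KRT18 made up nearly all of the sum, with means of 793, 814 and 628 CPM in miRcontrol, whereas EPCAM, CDH1 and KRT5 averaged 0.289, 0.146 and 0.174 CPM there. The epithelial sum was 2220 to 2268 CPM in miRcontrol, 2774 to 2781 with miR3124_mimic, 4188 to 4270 with miR200b_mimic, 2098 to 2188 with miR92b_inhibitor and 4081 to 4109 in the mixture, and of 6 genes tested 2 were higher and 1 lower, 6 and 0, 0 and 2, and 5 and 1 in the 4 transfected groups in that order. The 4 mesenchymal markers summed to more, at 7325 to 7347 CPM in miRcontrol, 4408 to 4530 with miR3124_mimic, 4617 to 4672 with miR200b_mimic, 6830 to 6976 with miR92b_inhibitor and 4969 to 4990 in the mixture. Of these 4 genes 1 was higher and 1 lower with the miR-3124-5p mimic and 1 and 3 in each of the other groups. In the order of groups above, 25.7%, 21.4%, 17.5% and 21.5% of all genes were higher and 25.3%, 19.1%, 18.2% and 21.1% lower. VIM, the intermediate filament vimentin, fell by 2.23 with the miR-3124-5p mimic, from a mean of 3800 to 813 CPM. Of 8 leukocyte markers, whose sum was 18.1 to 42.3 CPM, the defining genes PTPRC, CD3E and MS4A1 had at most 2 counts in any library. Most of the sum was CD68 and, with the miR-3124-5p mimic, CD14, which rose by 3.49 to 12.7 and 12.4 CPM. The 4 endothelial markers summed to 0.286 to 0.298 CPM in miRcontrol and 3.22 to 4.78 with miR3124_mimic, where most was CDH5, the endothelial cadherin, at 4.03 and 2.49 CPM. The part of these marker changes in the members' changes was not tested. Of 8 housekeeping genes 1 was higher and 3 lower with the miR-3124-5p mimic, 1 and 5 with the miR-200b-3p mimic, 2 and 3 with the miR-92b inhibitor and 0 and 3 in the mixture. ACTB, the actin often used as a reference gene, fell by 2.08 with the miR-3124-5p mimic, from 7150 ± 27.1 to 1686 ± 0.782 CPM (SD, n = 2), and by 0.91 in the mixture. Total counts per library ranged from 13587666 to 18503890.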

How the data were processed

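BEAS2B cells were profiled by paired-end mRNA-sequencing. The authors trimmed reads with FASTX_Trimmer and BBMap and mapped them with TopHat, and the submitters' processing notes name GRCh38. The counting tool, annotation and strand setting are not given in the sources used here. The files deposited hold unnormalized read counts, on 58173 rows per library, of which 5771 repeat a symbol and were summed. Genes were filtered with filterByExpr (14884 kept), library sizes were normalized by RLE, and all 10 libraries were fitted without covariates by the edgeR 4.0.16 quasi-likelihood test (limma 3.58.1, R 4.3.3), with Benjamini-Hochberg adjustment over all genes tested; the code was tested on simulated data. DESeq2 1.42.0 was an alternative. Normalization factors ran from 0.985 to 1.02. The members, the wider lists and the markers were chosen with earlier results of these data known. All members are named; of the wider lists, genes called with a change of at least 2-fold are named (at most 4 per list, largest first), and any other was named after its values were seen. Seed matches used the longest GENCODE v29 coding transcript of 19669 genes. Replicate differences over 14884 genes correlated between groups at -0.0372 to 0.0430, so no pairing of libraries by replicate number showed over all genes. A pairing or batch that touched few genes would not show in these correlations. OAS2, for example, was higher in replicate 2 of each group.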

Additional observations from a re-analysis of the deposited data

How the results depend on the processing

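The alternatives were TMM normalization, library totals only, genes unfiltered, a minimum of 10 counts per library, a replicate block, a fit of the 2 groups only, each library left out, DESeq2, and, added after seeing the data, only the row of a symbol with the most counts. Of 326 values for single members, 304 kept direction and side of the threshold, 8 kept direction and lost the call, and 14 changed sign, with no adjusted p under 0.05 before or after. The 8 were HLA-F with the miR-200b-3p mimic (library totals: adjusted p = 0.0540, DESeq2: 0.184, and 3 left-out libraries) and NLRC5 in the mixture (DESeq2: adjusted p = 0.150, and 2 left-out libraries). With the miR-200b-3p mimic 1 member was called under library totals and under DESeq2, and 1 to 2 with a library left out. The sign changes with a library left out were those of HLA-E with the miR-3124-5p mimic (-0.20 to 0.48), the miR-200b-3p mimic (-0.34 to 0.035), the miR-92b inhibitor (-0.51 to 0.58) and the mixture (-0.12 to 0.84), of HLA-F with the miR-3124-5p mimic (-0.14 to 0.45), and of TAPBP (-0.68 to 0.088) and NLRC5 (-0.056 to 0.054) with the miR-92b inhibitor. For that inhibitor NLRC5, at -0.00045, also became 0.0093 under TMM normalization, 0.0075 under library totals, 0.00063 with genes unfiltered, 2.5e-05 with the replicate block and 0.0047 in the fit of the 2 groups, and HLA-C became 0.041 with the row of most counts. The member median with the miR-92b inhibitor was -0.056 to 0.088 with a library left out. In the mixture it was 0.31 under TMM normalization, 0.31 under library totals, 0.30 with at least 10 counts, 0.35 with the row of most counts, and 0.288 to 0.351 with a library left out.

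With the replicate block, members called stayed at 5, 2, 2 and 4 in the 4 comparisons and 25 differences between transfected groups passed in place of 24. The numbers share no stated origin. TAP1, TAP2 and HLA-E had 0 to 19 counts per library, which limits what can be detected for them; the cause of these low counts was not tested.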
